A study of Mus musculus with 6 samples.

Results

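The genes described here are the subunits of the hypoxia-inducible factors (HIFs) and the enzymes that sense oxygen for them, measured in mouse bone marrow cells that make stem cell factor and in whole marrow. The set has 10 genes, chosen by name as Epas1, Hif1a, Hif3a, Arnt, Arnt2, Vhl, Egln1, Egln2, Egln3 and Hif1an, of 19938 genes tested on the arrays. Each had a single row in the deposited table whose annotation lists that symbol alone, so all 10 were measured. The set was proposed with the difference between the populations already known. That difference is therefore given for these 10 genes as a description with its standard error and no p-value. Other genes of the pathway were tested, but their lists were also chosen with earlier results of these data known. Counts of calls in those lists are therefore descriptions too.

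Scf-GFP+ cells carry a green fluorescent protein knocked into the gene for stem cell factor, Kitl. They came from the bone marrow of young adult mice, heterozygous for the Scf-GFP knockin, on a C57BL/6 background, and were double-sorted. Whole bone marrow cells came from wild-type young adult mice of the same background and were sorted without a second pass being named, so cell population, genotype and handling differed together. Each population was measured on 3 Affymetrix Mouse Gene 1.0 ST arrays with 5000 sorted cells per array, and no treatment is named for either. The labels speak of independent aliquots without naming animals, so the spread between arrays may be technical in part. Whole marrow is a mixture of many blood cell types, and each of its values is an average in which fewer cells that express a gene and less RNA per cell cannot be told apart.

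A HIF is a pair of proteins that binds DNA as a dimer. Its alpha subunit, encoded by Hif1a, Epas1 (HIF-2 alpha) or Hif3a, is made continuously and destroyed when oxygen is plentiful, and its beta subunit, encoded by Arnt or Arnt2, is stable. Oxygen is read by prolyl hydroxylases encoded by Egln1, Egln2 and Egln3, which mark the alpha subunit for capture by the von Hippel-Lindau protein (Vhl) and its ubiquitin ligase, and by the asparagine hydroxylase Hif1an, which blocks binding of coactivators. In bone marrow, a tissue with low oxygen, these factors are known for their part in blood stem cells, vessels and bone. Because HIF activity is set largely by protein stability, transcript levels of the subunits do not measure it.

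The arrays fell into the labelled populations. Across genes, which are not independent, Pearson's r between a Scf-GFP+ array and a whole marrow array was 0.818 to 0.834, and between arrays of the same population it was 0.973 to 0.981. Scf-GFP+ cells had higher calls for 14 of 14 measured perivascular stromal markers and lower calls for 16 of 20 blood cell markers, with 4 of 11 pericyte and smooth muscle markers higher, where called means a limma adjusted p below 0.05 over all genes and a difference of at least 2-fold. Of all genes tested, 9.01% were called higher and 7.89% lower. The mean log2 value of the blood markers was 7.42 in Scf-GFP+ replicate 1 and 6.13 and 6.38 in replicates 2 and 3, against 10.39 to 10.56 in whole marrow, so replicate 1 stood apart. Xist, made in female cells, split the arrays, with 11.50 and 11.81 in the first 2 Scf-GFP+ replicates and at most 5.10 elsewhere. The Y-linked gene Eif2s3y split them the other way, with 4.41 and 3.72 in those replicates and 7.33 to 8.23 elsewhere. Kdm5d, also Y-linked, did so too, and Uty did not.

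**Figure D1:**
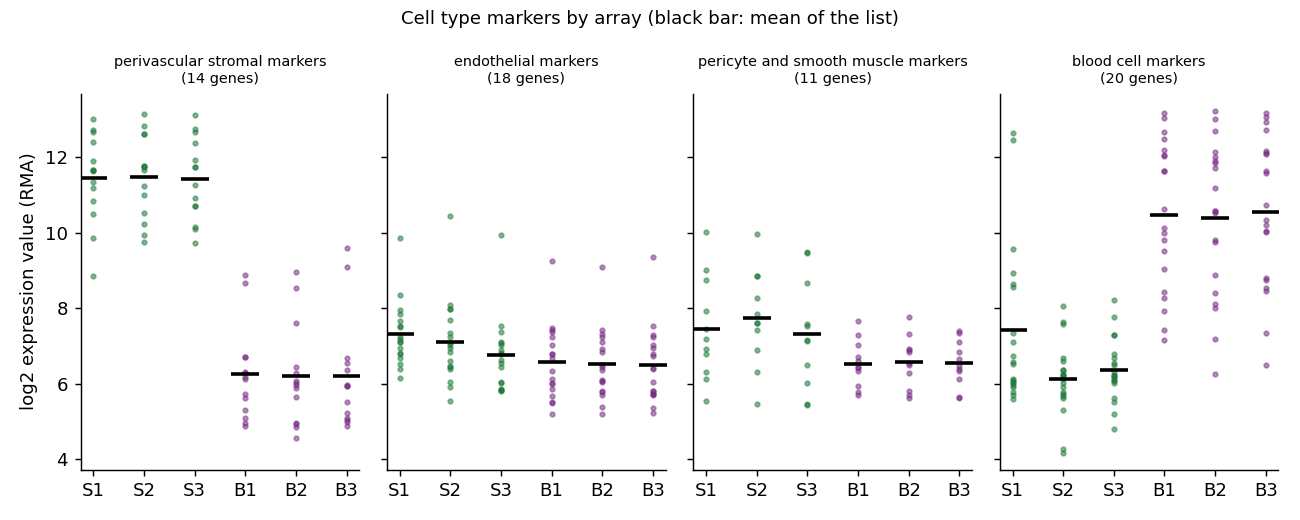
Log2 expression values (vertical axis) of fixed cell type markers on the 6 arrays (horizontal axis; S1 to S3 Scf-GFP+, B1 to B3 whole bone marrow), with a point per gene and a black bar for the mean of the list. Stromal markers are high in all 3 Scf-GFP+ arrays, blood markers are high in whole marrow and in part in S1, and endothelial means lie between 6.75 and 7.32 in Scf-GFP+ cells and between 6.51 and 6.57 in whole marrow.

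Among the alpha subunits, Epas1 showed the widest separation of the 10 genes. Its log2 value was 12.28, 12.10 and 11.89 in Scf-GFP+ replicates 1 to 3 and 6.21, 6.41 and 6.21 in whole marrow replicates 1 to 3. Every Scf-GFP+ array thus lay near the top of the arrays' range, which ended between 13.30 and 13.41, and every whole marrow value lay below its array's median of 6.59 to 6.62. The difference was 5.81 ± 0.14 (moderated SE, n = 3 arrays per group), or 56.2-fold, and ranked 35th from the highest among the 19938 genes. Arrays lose resolution at both ends of their range, so this fold is approximate. With a term for the split of the arrays by Xist, which leaves Scf-GFP+ replicate 3 against whole marrow, the Epas1 difference was 5.61.

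Epas1 was first known as an endothelial gene, so endothelial markers are given beside it. The call rule passed 3 of 18 endothelial markers as higher and 1 as lower, beside 9.01% and 7.89% of all genes. The median difference of these markers was 0.35, beside -0.08 for all genes. Those higher were Ramp2, a receptor subunit for adrenomedullin, by 4.21 ± 0.18, Emcn, a surface mucin, by 2.20 ± 0.18, and Cdh5, the cadherin of endothelial junctions, by 1.40 ± 0.38 (limma adjusted p = 0.0345). Its difference was 0.55 with the term for the Xist split (adjusted p = 0.277; 0.00269 to 0.277 over all alternatives), and its call was also lost, with a difference of 1.05 to 1.47, on leaving out any array other than Scf-GFP+ replicate 3. Cdh5 measured 7.54, 8.09 and 6.55 in Scf-GFP+ replicates 1 to 3 and 5.74 to 6.13 in whole marrow. The 14 markers not called differed by -0.17 (Plvap) to 0.61 ± 0.27 (Tek), with Flt1 at 0.60 ± 0.46, Kdr at 0.17 ± 0.22 and Vwf at -0.10 ± 0.11. Pecam1, which blood cells also express, was lower by -1.90 ± 0.26. Over Scf-GFP+ replicates 1 to 3 the endothelial mean was 7.32, 7.12 and 6.75, beside Epas1 values of 12.28, 12.10 and 11.89. The stromal markers Ebf1 (11.18, 10.99 and 10.70) and Prrx1 (11.34, 11.23 and 10.92), picked after their values were seen, fell in the same order, as did Kitl. Most of the stromal markers did not, such as Cxcl12 (13.01, 13.15 and 13.11) and Pdgfra (10.50, 10.52 and 10.71). The mean of the stromal markers was 11.44, 11.48 and 11.42. An order over 3 arrays is not particular to a cell type. The part of endothelial RNA in the Epas1 value was not tested.

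Hif1a, the alpha subunit found in most cells, was also higher in Scf-GFP+ cells, by less than Epas1. It measured 8.86, 9.07 and 8.47 in Scf-GFP+ cells and 7.46, 7.21 and 6.77 in whole marrow. The groups did not overlap, and the gap between them was wider than the range within either. The difference was 1.65 ± 0.23 (SE), or 3.13-fold, with 1.46 to 1.81 when any array was left out and 1.32 with the term for the Xist split. Hif3a, whose products include forms that oppose the other alpha subunits, measured 5.70, 5.68 and 5.74 in Scf-GFP+ cells and 5.78, 5.85 and 6.02 in whole marrow. These values do not overlap, but the difference of -0.18 ± 0.11 was small and all 6 values lay below the arrays' medians. RMA values carry no detection call, so neither population is said to lack Hif3a.

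**Figure D2:**
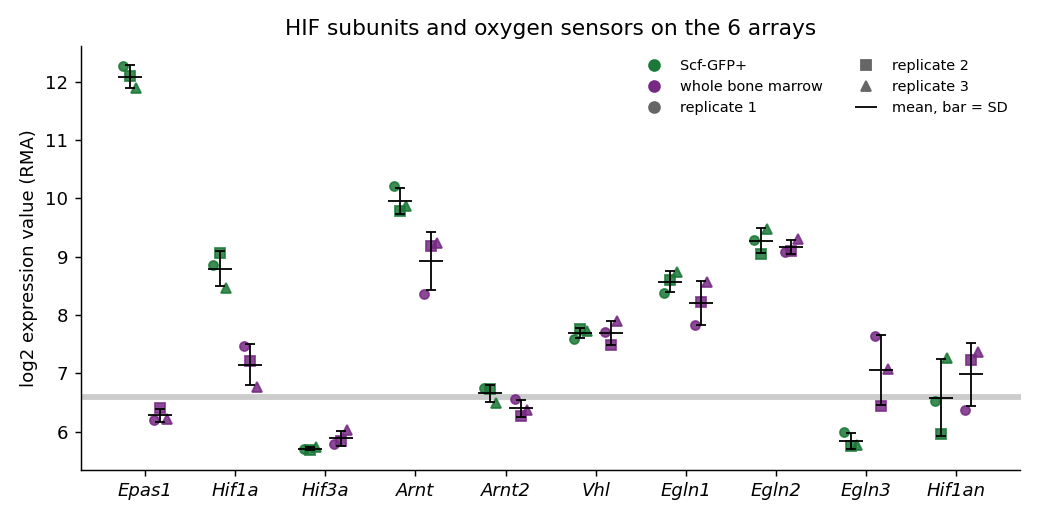
Log2 expression value (vertical axis) of the 10 genes (horizontal axis) on each array, with Scf-GFP+ in green and whole bone marrow in purple, a marker shape for each replicate number, and the mean with its SD over 3 arrays in black. The grey band is the range of the arrays' medians, 6.56 to 6.63. Epas1 lies at 11.89 to 12.28 in Scf-GFP+ cells and at 6.21 to 6.41 in whole marrow, and most oxygen sensors overlap between the populations. Values of different genes come from different probes and have no common scale.

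Of the beta subunits, Arnt was somewhat higher in Scf-GFP+ cells and Arnt2 overlapped. Arnt, the common partner of the alpha subunits and of the dioxin receptor, measured 10.22, 9.79 and 9.88 in Scf-GFP+ cells and 8.36, 9.19 and 9.24 in whole marrow. Whole marrow replicate 1 was the lowest of the 6 arrays, and without it the difference fell from 1.03 ± 0.26 (SE) to 0.75. At 2.04-fold, Arnt stood just past 2-fold. Arnt2, the beta subunit best known from brain and kidney, measured 6.76, 6.72 and 6.49 in Scf-GFP+ cells and 6.56, 6.27 and 6.37 in whole marrow, a difference of 0.26 ± 0.13. Scf-GFP+ replicate 3 lay below whole marrow replicate 1.

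Of the genes that send the alpha subunit to destruction, Vhl, Egln1 and Egln2 overlapped between the populations and Egln3 did not. Vhl, which recognises the hydroxylated alpha subunit, measured 7.60, 7.77 and 7.72 in Scf-GFP+ cells and 7.72, 7.49 and 7.90 in whole marrow. The difference of -0.005 ± 0.136 was smaller than its error. Egln1 (PHD2), the main oxygen sensor in most tissues, measured 8.38, 8.60 and 8.74 against 7.83, 8.22 and 8.57, with a difference of 0.37 ± 0.21. Whole marrow replicate 3 lay within the range of the Scf-GFP+ arrays. Egln2 (PHD1) measured 9.29, 9.05 and 9.48 against 9.09, 9.10 and 9.30 and differed by 0.11 ± 0.14.

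Egln3 (PHD3), a hydroxylase whose gene is itself switched on by HIF in many cells, was the gene of the set that was lower in Scf-GFP+ cells without overlap and by more than 2-fold. It measured 5.99, 5.76 and 5.77 in Scf-GFP+ cells and 7.64, 6.44 and 7.08 in whole marrow. The Scf-GFP+ arrays lay close together and below their medians, while the whole marrow arrays spread over more than a log2 unit with replicate 1 highest. The difference was -1.22 ± 0.29, or 2.32-fold, and -0.92 without whole marrow replicate 1. Hif1an (FIH), the asparagine hydroxylase, varied most of the 10 within Scf-GFP+ cells, at 6.53, 5.95 and 7.26 in Scf-GFP+ cells and 6.37, 7.23 and 7.36 in whole marrow. Its difference of -0.41 ± 0.39 (SE) turned to 0.28 with the term for the Xist split, so no direction can be given for it.

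Differences of at least 2-fold were found for Epas1, Hif1a and Arnt, higher in Scf-GFP+ cells, and for Egln3, lower. Those of Arnt and Egln3 fell below 2-fold without whole marrow replicate 1. The same 3 and 1 of the 10 genes are among the 9.01% and 7.89% of all genes called in these directions. Arrays of the populations did not overlap for these 4 genes and for Hif3a, against 19.0% of all genes without overlap and higher and 26.4% without overlap and lower. Since the choice of the set used this contrast, nothing is read from these counts. The median difference of the 10 genes was 0.18, beside -0.08 for all genes.

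**Figure D3:**
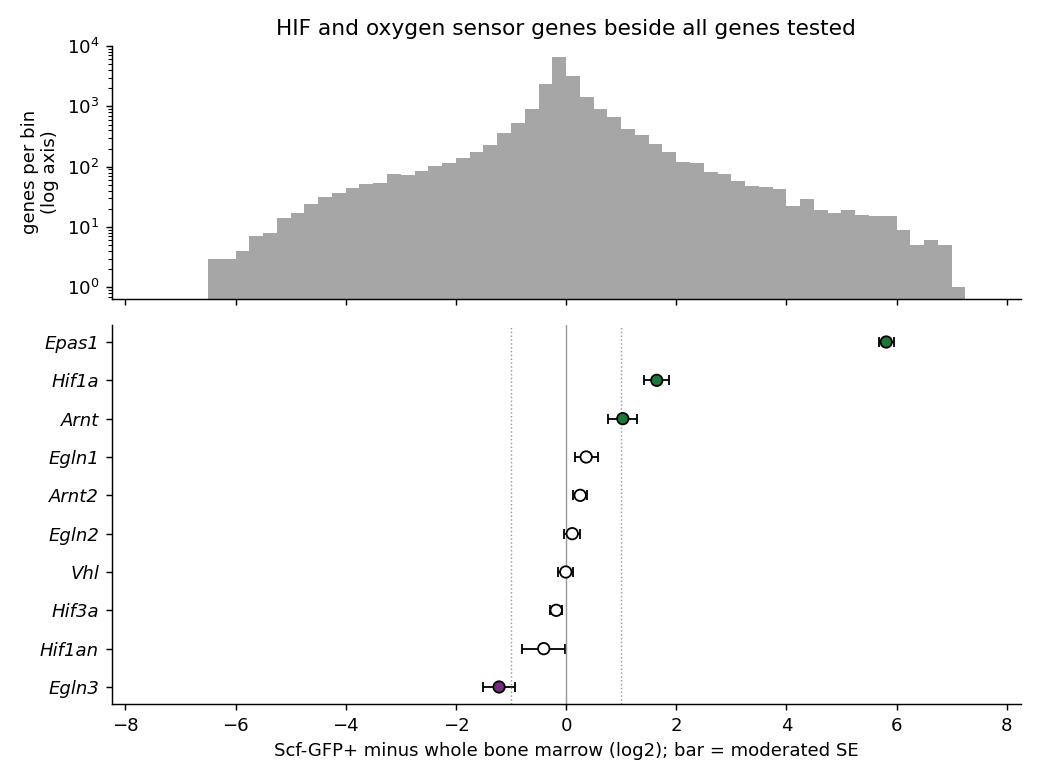
Top, number of genes (log axis) by log2 difference, Scf-GFP+ minus whole bone marrow, in bins over all 19938 genes. Bottom, the same difference for each of the 10 genes with its moderated SE, filled where the difference was at least 2-fold (green higher, purple lower), with dotted lines at 2-fold. Epas1 at 5.81 lies in the upper tail and 6 genes lie within 2-fold.

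The genes with the most similar profile were found by the root mean square distance between centred log2 values over the 6 arrays. For Epas1 they were Fbln5, which encodes an elastic fibre protein, at a distance of 0.06, Ptprd, a receptor tyrosine phosphatase, at 0.13, and Abi3bp, an extracellular matrix protein, at 0.14. Their differences were 5.80, 5.63 and 5.99. For Hif1a they were Abca5, Zfp229 and Septin2, at 0.07 to 0.08. For Arnt they were Ugcg, Zbtb6 and Carf, at 0.12 to 0.16, and for Egln3 Tnfrsf13c, the B cell receptor for BAFF, Traip and Il12a, at 0.09 to 0.11. With 6 arrays in 2 populations such likeness mostly restates the population difference.

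The RefSeq promoter table of build GRCm38.p6, with 250 bases before to 50 bases after each gene start, held 9 of the 10 genes. It had no entry for Epas1, so no Epas1 promoter is shown. The promoters of 3 genes of the set with a difference of at least 2-fold are shown because HIF dimers are known to bind the core letters ACGTG or GCGTG, which stand in capitals on either strand (CACGT and CACGC are the same letters on the opposite strand, and CACGTG is a match on both). They lie at chr12:73907617-73907916, plus strand for Hif1a, chr3:95434140-95434439, plus strand for Arnt and chr12:54203825-54204124, minus strand for Egln3, each printed 5′ to 3′ along the gene's strand.
Hif1a: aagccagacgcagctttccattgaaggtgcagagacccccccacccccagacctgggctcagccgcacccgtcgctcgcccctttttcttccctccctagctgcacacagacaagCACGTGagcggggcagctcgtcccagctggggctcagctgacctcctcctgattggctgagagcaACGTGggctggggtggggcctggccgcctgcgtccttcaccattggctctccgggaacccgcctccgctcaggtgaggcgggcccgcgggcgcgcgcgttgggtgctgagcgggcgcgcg
Arnt: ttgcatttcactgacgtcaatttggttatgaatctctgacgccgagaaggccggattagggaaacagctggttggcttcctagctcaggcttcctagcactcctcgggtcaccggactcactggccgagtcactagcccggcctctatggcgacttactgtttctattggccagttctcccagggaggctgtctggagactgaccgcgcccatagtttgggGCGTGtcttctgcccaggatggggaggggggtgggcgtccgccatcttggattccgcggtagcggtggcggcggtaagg
Egln3: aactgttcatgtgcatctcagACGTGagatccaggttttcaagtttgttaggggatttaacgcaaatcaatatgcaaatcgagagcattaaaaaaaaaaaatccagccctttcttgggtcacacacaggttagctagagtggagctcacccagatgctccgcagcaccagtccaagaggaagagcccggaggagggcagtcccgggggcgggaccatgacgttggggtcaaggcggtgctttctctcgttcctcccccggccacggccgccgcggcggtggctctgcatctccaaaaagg
Hif1a held 2 marked places, Arnt 1 and Egln3 1. Of the 10 promoters listed for genes of the set, 7 held at least 1 such match, beside 43.8% of all 32851 promoters in the table. Such matches are common and describe letters, not sites in use.

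Among 10 measured genes of the VHL ubiquitin ligase and its partners the call rule passed 1 as higher and 0 as lower, and their median difference was 0.03, a share of higher calls near the 9.01% of all genes. The adaptor genes Elob and Eloc, the ring protein gene Rbx1 and the ubiquitin-like gene Nedd8, chosen here after their values were seen, differed by -0.33 ± 0.19, -0.05 ± 0.18, 0.04 ± 0.10 and -0.02 ± 0.10. The scaffold gene Cul2 measured 7.62, 8.06 and 6.54 against 6.07, 6.26 and 6.50 and did not pass (1.13 ± 0.38, limma adjusted p = 0.0706). Usp33, a deubiquitinase that Vhl binds, was the gene called, at 1.12 ± 0.28 (adjusted p = 0.0263). That call did not hold when replicate 1 or 2 of Scf-GFP+ cells, or replicate 3 of whole marrow, was left out (0.0724, 0.0691 and 0.0619; 0.00639 to 0.286 over all alternatives).

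Of 19 genes for HIF stability and coactivation, 0 were called higher and 1 lower by limma, beside 9.01% and 7.89% of all genes. In the upward direction, 4 passed an adjusted p of 0.05 without the fold minimum, beside 2758 of all 19938 genes. The gene that fell was Hsp90aa1, a chaperone that protects Hif1a protein, at 10.27, 10.49 and 10.35 in Scf-GFP+ cells against 12.13, 12.13 and 11.95 in whole marrow (-1.70 ± 0.11, adjusted p = 8.24e-05). Cited2, which competes with HIF for its coactivators and is a HIF target, differed by 0.73 ± 0.14 and stayed below 2-fold. Of 9 other genes of the bHLH-PAS family, to which the HIF subunits belong, 1 was called higher, beside 9.01% of all genes. The gene called was Clock, the circadian activator, at 1.79 ± 0.32 (adjusted p = 0.00660). It did not pass with the term for the Xist split (1.37, adjusted p = 0.0841; 0.00205 to 0.0841 over all alternatives). Its partner Arntl (Bmal1) differed by -0.76 ± 0.11.

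Other dioxygenases use oxygen and 2-oxoglutarate as the HIF hydroxylases do, or sense oxygen in another way. Of 28 measured, 6 passed the call rule as higher and 2 as lower, beside 9.01% and 7.89% of all genes. The median difference of the 28 was 0.21. Of the 6, 4 encode enzymes that hydroxylate collagen, namely Plod1, Plod2, P4ha1 and P4ha2. The largest was Plod2, a lysyl hydroxylase of collagen and a HIF target, at 10.18, 10.13 and 8.99 in Scf-GFP+ cells and 4.89, 5.00 and 5.14 in whole marrow, or 27.0-fold (4.76 ± 0.32, adjusted p = 8.47e-05). Scf-GFP+ replicate 3 was the lowest of its group and still far above whole marrow, whose values lay below those arrays' first quartiles of 5.25 to 5.31, so the fold is approximate. The collagen prolyl hydroxylase genes P4ha2 and P4ha1 rose by 2.07 ± 0.31 and 1.495 ± 0.354, and Tet1, which oxidises methylated cytosine, by 1.70 ± 0.33 (adjusted p = 0.00296, 0.0213 and 0.0101).

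Some of these calls did not hold in every setting. P4ha1 measured 8.82, 8.90 and 9.48 against 6.98, 8.30 and 7.44, and its call did not hold when replicate 3 of Scf-GFP+ cells, or replicate 1 or 3 of whole marrow, was left out (differences of 1.29, 1.20 and 1.43; adjusted p = 0.0612, 0.0543 and 0.0734; 0.00533 to 0.131 over all alternatives). Plod1, at 1.02 ± 0.24 (adjusted p = 0.0227; 0.00786 to 0.337 over all alternatives), stood at the 2-fold minimum and lost its call in 7 of the alternative settings. Tet1 did not pass with the term for the Xist split (1.76, adjusted p = 0.0742; 0.000249 to 0.0742 over all alternatives). The genes called lower were Riox1, a ribosomal oxygenase, at -1.28 ± 0.19 and Tet3 at -1.04 ± 0.15. Riox1 fell short of 2-fold with the term for the Xist split (-0.88), and Tet3 without Scf-GFP+ replicate 2 (-0.92), without whole marrow replicate 1 (-0.96) and with the mean of its rows (-0.91). P4htm, a membrane-bound prolyl hydroxylase that also acts on HIF, differed by 0.60 ± 0.12 and stayed below 2-fold.

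Of 21 measured targets in vessels, matrix and secretion, 13 passed the call rule as higher and 0 as lower, beside 9.01% and 7.89% of all genes. The median difference of the list was 1.59, beside -0.08 for all genes. Like the others, this list was chosen with earlier results of these data known. The 4 largest were Cxcl12, a chemokine that holds stem cells in the marrow, at 6.09 ± 0.25, Kitl at 5.57 ± 0.22, Lox, which cross-links collagen, at 5.16 ± 0.24, and Plod2. Kitl is the gene the cells were sorted on, and 12 genes were called without it. Lox measured 10.05, 10.32 and 9.49 in Scf-GFP+ cells and 4.74, 5.06 and 4.58 in whole marrow (adjusted p = 1.64e-05). The whole marrow values of Lox and Kitl, like those of Plod2, lay below the first quartiles, so the sizes of these differences are approximate. Vegfa, the main growth factor for vessels and a classic HIF target, measured 10.48, 10.33 and 10.58 against 8.83, 8.79 and 8.995, with no overlap and little spread (1.59 ± 0.12, or 3.02-fold, adjusted p = 0.000123).

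Other secreted targets did not follow. Adm, adrenomedullin, measured 5.87, 5.72 and 6.17 in Scf-GFP+ cells and 7.59, 5.69 and 5.72 in whole marrow, where replicate 1 alone was high (-0.41 ± 0.51, adjusted p = 0.597). Epo, erythropoietin, an Epas1 target in kidney and liver, lay between 4.22 and 4.44 on all 6 arrays, below their first quartiles of 5.19 to 5.31 (0.05 ± 0.10). Many genes in this list are also products of mesenchymal cells, whose markers were called higher for 14 of 14 genes. Cxcl12 and Kitl are counted both here and among those markers. Plod1, Plod2, P4ha1 and P4ha2 are counted both here and among the dioxygenases, so these counts are not separate. The part of cell type in these differences was not tested.

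**Figure D4:**
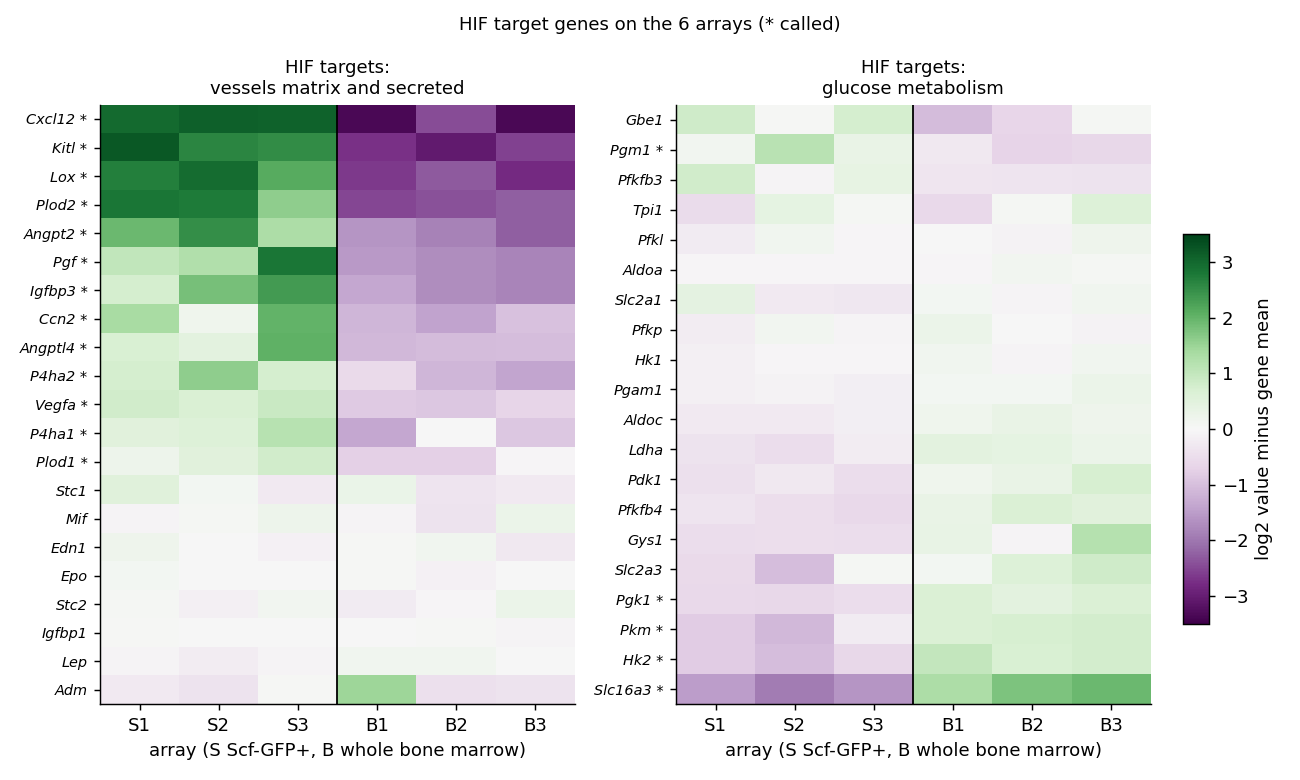
Log2 value minus the gene's mean over the 6 arrays (colour scale) for HIF targets in vessels, matrix and secretion (left) and in glucose metabolism (right), with arrays as columns (S1 to S3 Scf-GFP+, B1 to B3 whole bone marrow), genes ordered by difference and called genes starred. The left panel has 13 called genes, all higher in Scf-GFP+ cells, and the right panel has 1 called higher and 4 lower.

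Of 20 measured targets in glucose metabolism, 1 passed the call rule as higher and 4 as lower, beside 9.01% and 7.89% of all genes. The median difference of the list was -0.38. Blood cell markers moved the same way, with 16 of 20 called lower and a median of -3.88, and the part of cell type in the glucose targets was not tested. Slc16a3, which exports lactate, measured 8.11, 7.68 and 8.01 in Scf-GFP+ cells and 10.91, 11.37 and 11.53 in whole marrow, or 10.1-fold lower (-3.34 ± 0.20, adjusted p = 4.9e-05). The hexokinase gene Hk2 fell by 1.64 on the log2 scale (SE 0.15, adjusted p = 0.000308), the pyruvate kinase gene Pkm by 1.42 (SE 0.22, adjusted p = 0.00391) and the phosphoglycerate kinase gene Pgk1 by 1.15 (SE 0.11, adjusted p = 0.000340). Pgk1 measured 9.91, 9.89 and 10.02 in Scf-GFP+ cells and 11.14, 10.98 and 11.15 in whole marrow, with little spread in either. Pkm stayed below 2-fold with the term for the Xist split (-0.94).

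Ldha, lactate dehydrogenase, and Pdk1, which keeps pyruvate out of mitochondria, passed the adjusted p without reaching 2-fold, at -0.73 ± 0.12 and -0.81 ± 0.17 (adjusted p = 0.00507 and 0.0117). Without the fold minimum, 8 genes of this list were lower and 2 higher, beside 2635 lower and 2758 higher of all 19938 genes. Slc2a1, the glucose transporter GLUT1, overlapped between the populations at 8.29, 7.61 and 7.56 against 7.97, 7.81 and 8.04 (-0.12 ± 0.21). The gene called higher was Pgm1, a phosphoglucomutase, at 1.04 ± 0.27 (adjusted p = 0.0312). It lost its call without Scf-GFP+ replicate 2 or any 1 of the whole marrow arrays, in the fit with the replicate number as a block (adjusted p = 0.0631) and with the term for the Xist split (0.0183 to 0.372 over all alternatives).

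Of 28 measured targets in stress, pH and feedback, 3 were called higher and 3 lower, shares near the 9.01% and 7.89% of all genes, and the median difference was -0.09. Trf, transferrin, rose by 2.88 ± 0.15 and Insig2, a brake on sterol synthesis, by 2.53 ± 0.19 (adjusted p = 2.57e-05 and 0.000134). Bnip3, a mitochondrial protein of mitophagy, measured 9.34, 9.98 and 10.17 against 8.85, 8.91 and 8.41 (1.10 ± 0.25, adjusted p = 0.0174). That call did not hold when replicate 2 or 3 of Scf-GFP+ cells, or replicate 3 of whole marrow, was left out, with adjusted p from 0.00532 to 0.228 over all alternatives. The genes that fell were Tfrc, the transferrin receptor of dividing and red cell precursors, at -5.16 ± 0.22, Cxcr4, the receptor for Cxcl12 on blood cells, at -4.23 ± 0.22, and Narf at -1.44 ± 0.30 (adjusted p = 1.31e-05, 2.6e-05 and 0.0122). Tfrc and Cxcr4 are expressed by blood cells, whose markers were called lower for 16 of 20 genes, and the part of cell type in their difference was not tested. Ndrg1 and the carbonic anhydrase gene Car9, often used as signs of HIF activity, differed by 0.03 ± 0.18 and -0.13 ± 0.13 and were not called. Car9 lay between 5.63 and 5.98 on all 6 arrays, below their medians of 6.56 to 6.63, so its lack of difference says little.

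Genes with a reported preference for Epas1 were not uniformly higher where Epas1 was high. Of 15 measured, 3 passed the call rule as higher and 1 as lower, beside 9.01% and 7.89% of all genes. The median difference of the 15 was -0.10. Angpt2, a ligand of the endothelial receptor Tek, measured 9.90, 10.47 and 9.29 in Scf-GFP+ cells against 6.37, 6.12 and 5.71 (3.82 ± 0.32, adjusted p = 0.000216). Mmp14, a membrane-bound matrix protease, measured 10.24, 10.39 and 10.36 against 6.80, 6.63 and 6.77 (3.59 ± 0.11, adjusted p = 3.33e-06). Slc40a1, the iron exporter ferroportin, rose by 1.45 ± 0.24 and Slc11a2, an iron importer, fell by 1.34 on the log2 scale (SE 0.22), with adjusted p = 0.00513 and 0.00495. Slc11a2 stayed below 2-fold with the term for the Xist split (-0.90).

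**Figure D5:**
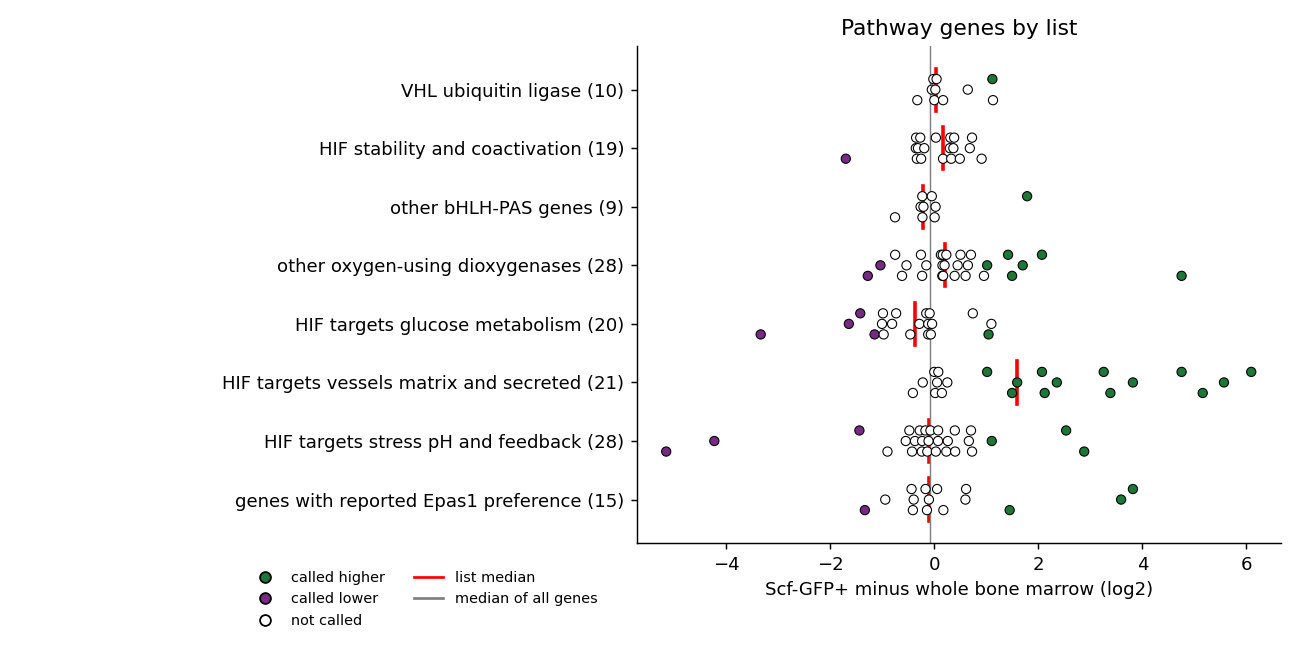
Log2 difference, Scf-GFP+ minus whole bone marrow (horizontal axis), of each measured gene in 8 pathway lists (rows, with the number measured), filled green where called higher and purple where called lower, with the list median in red and the median of all genes in grey. The list of vessel, matrix and secreted targets has a median of 1.59 and the other lists have medians between -0.38 and 0.21. Some genes stand in more than 1 list.

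Promoters of targets on both sides are shown to set the letters beside the direction, for P4ha1 (chr10:59323046-59323345, plus strand) and Bnip3 (chr7:138909457-138909756, minus strand), called higher, and Pgk1 (chrX:106186850-106187149, plus strand) and Slc16a3 (chr11:120948817-120949116, plus strand), called lower. The build, strand and capitals are as for Hif1a.
P4ha1: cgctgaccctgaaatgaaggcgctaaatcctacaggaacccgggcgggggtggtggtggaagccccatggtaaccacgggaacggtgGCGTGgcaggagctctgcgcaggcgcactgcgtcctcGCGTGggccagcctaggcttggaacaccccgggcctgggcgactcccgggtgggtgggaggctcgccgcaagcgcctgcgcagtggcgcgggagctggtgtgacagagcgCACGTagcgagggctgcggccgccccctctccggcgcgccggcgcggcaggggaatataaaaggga
Bnip3: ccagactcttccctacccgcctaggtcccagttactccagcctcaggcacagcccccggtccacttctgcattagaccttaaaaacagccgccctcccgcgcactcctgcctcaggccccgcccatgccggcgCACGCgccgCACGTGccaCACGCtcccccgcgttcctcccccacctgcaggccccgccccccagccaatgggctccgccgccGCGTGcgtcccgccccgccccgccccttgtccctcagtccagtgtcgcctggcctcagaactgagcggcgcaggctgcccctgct
Pgk1: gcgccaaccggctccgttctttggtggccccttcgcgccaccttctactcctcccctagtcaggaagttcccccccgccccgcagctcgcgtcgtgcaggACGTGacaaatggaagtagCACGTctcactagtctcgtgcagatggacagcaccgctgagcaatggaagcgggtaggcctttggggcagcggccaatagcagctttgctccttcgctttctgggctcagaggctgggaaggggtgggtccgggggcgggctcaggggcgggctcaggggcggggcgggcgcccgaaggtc
Slc16a3: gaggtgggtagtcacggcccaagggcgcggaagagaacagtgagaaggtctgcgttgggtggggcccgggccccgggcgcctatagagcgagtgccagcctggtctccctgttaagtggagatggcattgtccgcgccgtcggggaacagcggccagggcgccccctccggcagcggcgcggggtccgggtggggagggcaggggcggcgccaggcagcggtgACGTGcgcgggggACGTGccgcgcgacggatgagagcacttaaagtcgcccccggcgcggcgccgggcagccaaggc
P4ha1 held 3 marked places and Bnip3 4, while Pgk1 and Slc16a3 held 2 each, as did Hk2, also called lower. The calls of P4ha1 and Bnip3 were each lost in 4 alternative settings. Lox, Plod2 and Angpt2, called higher with larger differences, had no promoter in the table. Vegfa, also called higher, has 2 promoters in the table, with 2 marked places and 0. Matches were present in 76.5% of 17 promoters of the vessel, matrix and secreted targets, in 74.1% of 27 promoters of the glucose targets and in 83.9% of 31 promoters of the stress targets, beside 43.8% of all promoters. Lists not made of targets varied, with 87.5% of 8 promoters for the VHL ligase and 75% of 20 for HIF stability and coactivation. The share was 56% of 25 for the other dioxygenases, 41.7% of 12 for stromal markers and 16.7% of 18 for blood cell markers. High shares were thus not particular to targets, and base composition was not matched. A match is not a measure of binding.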

How the data were processed

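Expression was measured on 6 arrays, 3 per population, and depth does not apply to arrays, so their number limits the precision. The authors deposited a single table of log2 values. RMA, affy and limma are listed, with no role or version, in the submitters' processing notes, and no annotation build is given there. The values were used as deposited.

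Of 28940 rows, 21789 carried exactly 1 gene symbol, 1621 several and 5530 none. Entrez identifiers were used to bring symbols up to date with RefSeq (GRCm38.p6), and 91 rows kept the listed symbol. The highest-mean row stood for each of 999 genes with several rows, which left 19938 genes. Under R 4.3.3, limma 3.58.1 fitted the 2 groups without covariates (lmFit, then eBayes), after the fit had been tested on simulated data, with Benjamini-Hochberg adjustment over all genes. Every adjusted p in the text is limma's. A positive difference means higher in Scf-GFP+ cells.

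The 10 genes, the lists and the tests were chosen with earlier results of these data known. Named genes are the 10 genes and their nearest profiles, up to 4 called genes per list and direction with the largest difference, 13 genes fixed by name, cell type markers, and others said or needed to describe a list. A list is described by counts and median, with no set test. Alternatives were a replicate block, a trend and robust fit, 2 other normalizations, 2 filters on low values, the mean of rows, a term for the Xist split, no fold minimum, limma's treat at 1.5-fold, and leaving out each array.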

Additional observations from a re-analysis of the deposited data

How the results depend on the processing

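In 136 comparisons with an alternative, the difference of each of the 10 genes was set against its SD between replicates. Most outcomes were fixed in advance. A block, a trend and robust fit, a filter or the mean of rows cannot change the difference of a gene with 1 row. Leaving out 1 of 3 arrays cannot move it by 1 SD. The difference moved by less than 1 SD in 131 comparisons. The other 5 came from the term for the Xist split, which gave 5.61 for Epas1, 1.32 for Hif1a, 0.087 for Arnt2, 0.32 for Egln2 and 0.28 for Hif1an, where the sign turned. Leaving out each array in turn gave 5.72 to 5.91 for Epas1, 1.46 to 1.81 for Hif1a, 0.75 to 1.19 for Arnt, -1.52 to -0.92 for Egln3 and -0.11 to 0.09 for Vhl. By the call rule, 0 of the 10 genes were lower with the filter above the median (which leaves Egln3 out), with the Xist term and with treat, and 0 to 1 when an array was left out. Genes called higher numbered 2 to 3 when an array was left out. Arnt lost its call in 8 alternatives, and Egln3 lost its call in 6 besides that filter. Since the choice of the set used this contrast, calls on the 10 genes are descriptions in every setting. Nothing is read from them.

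With the Xist term, 0 genes were called higher in the VHL ligase, bHLH-PAS and glucose lists, 1 lower among the dioxygenases and 0 lower in the Epas1 preference list. With treat, 0 were higher in the VHL ligase and glucose lists, 3 higher and 1 lower among the dioxygenases and 0 lower in the Epas1 preference list. With no fold minimum, 2 VHL ligase genes, 4 stability genes, 2 glucose genes and 6 stress genes were higher, and 1 bHLH-PAS gene, 8 glucose genes and 2 genes with Epas1 preference were lower, with 2758 of all genes higher and 2635 lower. The mean of rows left 1 dioxygenase lower. Glucose targets called higher numbered 2 with the trend and robust fit and with either filter. Leaving out each array gave 0 to 2 VHL ligase genes higher, 0 to 1 stability genes higher, 1 to 3 dioxygenases lower and 0 to 1 glucose targets higher. The cause of these changes was not tested. The vessel, matrix and secreted list kept 11 to 13 genes called higher when an array was left out, and 12 without Kitl, a setting chosen after seeing the data.

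Replicate numbers did not pair the arrays. The correlations of same-numbered arrays' deviations from their group means were -0.06, -0.02 and 0.07. With the replicate number as a block, 1775 genes were called higher and 1563 lower, 2 of the 10 genes were called higher (Arnt was not) and 0 glucose targets were called higher, and the count of calls in each other list stayed within 1.5 times its main value. Arnt also missed the 2-fold minimum with arrays centred on their median (1.00), where Plod1 did too (0.98).

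Precision is limited by 3 arrays per group, RNA amplified from 5000 cells and the loss of resolution at both ends of the array range, where Epas1 in Scf-GFP+ cells and Epo lie. Population, genotype and sorting cannot be told apart in this design. The Xist split is also uneven between the populations, since Xist was high in Scf-GFP+ replicates 1 and 2 and in no whole marrow array. The labels name no sex.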
